A study of Homo sapiens with 18 samples.

Results

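The genes described here are 10 enzymes of glycolysis and lactate formation: GAPDH, ENO1, PKM, PGK1, LDHA, LDHB, ALDOA, TPI1, PGAM1 and HK2. They were taken by name from the authors' deposited table of 63568 gene entries, and all 10 were found there. The measurements came from HEK293 cells, a human embryonic kidney cell line, in 18 RNA-seq libraries. Newly made RNA was collected after 7.5, 15, 30, 45 or 60 min with 500 µM 4-thiouridine, a uridine analogue that marks RNA transcribed in its presence, and was pulled out on streptavidin after biotinylation, with 3 libraries per time. Total RNA skipped that pull-down and gave 3 libraries, each made by another selection: poly(A) capture in replicate 1, RNase H depletion of ribosomal RNA in replicate 2 and Ribo-Zero depletion in replicate 3. All groups share 1 cell line, and nothing in the labels says that replicates were separate cultures, so the spread behind each p-value is that of these libraries and may be technical.

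Glycolysis splits glucose into pyruvate in the cytosol and yields ATP and NADH on the way. Hexokinases such as HK2 phosphorylate glucose at entry, ALDOA (aldolase A) cleaves fructose bisphosphate and TPI1 (triosephosphate isomerase) interconverts the resulting trioses. GAPDH, PGK1, PGAM1, ENO1 and PKM then carry the trioses to pyruvate through glyceraldehyde phosphate dehydrogenase, phosphoglycerate kinase, phosphoglycerate mutase, enolase and pyruvate kinase. LDHA and LDHB, the subunits of lactate dehydrogenase, convert pyruvate and lactate into each other. Hexokinase and pyruvate kinase catalyse controlled, nearly irreversible steps, whereas most of the other enzymes work close to equilibrium and are made in large amounts. HK2 is the inducible hexokinase of many growing cells and tumours, and several of these genes are known targets of the hypoxia-inducible factors and of MYC.

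Values were the authors' TPM (a transcript's share of its library, corrected for transcript length) for the mature (spliced) and the primary (unspliced) form of each gene. TPM carry no read depth, so the depth is unknown and counting error cannot be given. Between 15159 and 20407 genes had some mature TPM in a labelled library and between 22906 and 24470 in a total one, and primary transcripts held 7.19% to 25.7% of the TPM of labelled libraries and 0.528% to 0.879% of total ones. VIM (vimentin), abundant in HEK293 cells, had 281 to 356 TPM at 60 min, and PAX2, a factor of the developing kidney, had 3.48 to 6.2 TPM, against 0 in all 18 libraries for CD3E of T cells, HBB of red cells and INS of the pancreatic islet. The other listed marker of this line with data, NEFM, stayed below 1 TPM at 60 min and in total RNA. Not all markers of other cell types were absent. Of the 8 listed, HBA1 of red cells and COL1A1 of fibroblasts averaged at least 1 TPM over the labelled libraries, and the rest averaged less. Neither of these passed at 60 against 7.5 min (limma adjusted p = 0.549 for HBA1 and 0.838 for COL1A1), which says nothing of their presence.

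Of the windows around annotated gene starts, 4 are shown as examples, 3 with and 1 without the motifs described next. The windows run from 250 bases before to 50 bases after a gene's start (RefSeq, GRCh38.p14), and the 10 genes have 15 of them. Capitals mark ACGTG, the core of the hypoxia response element, searched on both strands; CACGTG, the E-box bound by MYC and its relatives, contains that core on both strands, so each E-box also counts as a match of the core. The core was present in 9 of the 15 windows, from 6 of the 10 genes, and in 21.4% of all 35116 windows of that length, while the E-box was present in 4 of the 15 and in 7.26% of all. A match describes letters only and is no evidence of binding. The second of 2 HK2 windows (chr2:74834920-74835219, plus strand) holds 2 E-boxes, and the first LDHA window (chr11:18394313-18394612, plus strand) 2 E-boxes and 1 separate core. The GAPDH window (chr12:6535014-6535313, plus strand) holds 1 E-box, and the PGAM1 window (chr10:97427568-97427867, plus strand) neither. These HK2, GAPDH and PGAM1 windows lie inside annotated introns of their own genes (chr2:74834644-74854292, chr12:6534862-6536493 and chr10:97426447-97430378). They surround internal starts, so their letters do not describe the upstream ends of these loci. Use of those starts in these cells was not tested.
HK2: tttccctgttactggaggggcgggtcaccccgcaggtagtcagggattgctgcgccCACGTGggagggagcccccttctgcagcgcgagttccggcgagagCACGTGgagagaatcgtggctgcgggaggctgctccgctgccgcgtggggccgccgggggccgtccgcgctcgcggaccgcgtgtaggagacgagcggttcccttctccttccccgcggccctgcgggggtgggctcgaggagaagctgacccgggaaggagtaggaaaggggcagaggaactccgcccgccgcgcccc
LDHA: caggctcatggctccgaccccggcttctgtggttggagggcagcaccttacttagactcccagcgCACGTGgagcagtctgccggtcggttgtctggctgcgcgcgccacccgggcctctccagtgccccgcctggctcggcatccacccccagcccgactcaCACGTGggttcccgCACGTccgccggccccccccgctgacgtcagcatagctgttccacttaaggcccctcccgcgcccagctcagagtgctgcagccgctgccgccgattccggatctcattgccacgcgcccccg
GAPDH: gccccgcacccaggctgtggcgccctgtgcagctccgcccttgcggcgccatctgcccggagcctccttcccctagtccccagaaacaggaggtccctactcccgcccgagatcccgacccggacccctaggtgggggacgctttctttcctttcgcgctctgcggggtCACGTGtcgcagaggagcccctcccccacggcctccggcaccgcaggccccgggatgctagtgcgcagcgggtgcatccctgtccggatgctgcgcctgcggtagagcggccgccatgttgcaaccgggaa
PGAM1: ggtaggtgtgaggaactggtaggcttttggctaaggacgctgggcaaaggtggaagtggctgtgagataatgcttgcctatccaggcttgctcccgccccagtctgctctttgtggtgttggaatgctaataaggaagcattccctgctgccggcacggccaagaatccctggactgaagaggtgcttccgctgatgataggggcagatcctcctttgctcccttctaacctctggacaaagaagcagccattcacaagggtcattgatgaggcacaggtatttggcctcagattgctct

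In total RNA the enzymes spanned a wide range of steady levels, from GAPDH, among the most abundant mRNAs of the cell, down to HK2, a scarce one. GAPDH had 4331, 1860 and 2416 mature TPM in total replicates 1, 2 and 3, and HK2 had 10.3, 7.21 and 4.12 TPM in the same libraries. Ranked among protein-coding genes, GAPDH stood at 18, 20 and 4 and HK2 at 7793, 7763 and 8542. The means (± SD, n = 3) fell in the order GAPDH (2869 ± 1300 TPM), ENO1 (1248 ± 391), PKM (853 ± 393), ALDOA (747 ± 258), LDHB (607 ± 217), TPI1 (467 ± 87.3), LDHA (353 ± 151), PGAM1 (263 ± 98.5), PGK1 (119 ± 44.9) and HK2 (7.21 ± 3.10). The steps from GAPDH to ENO1, from PGAM1 to PGK1 and from PGK1 to HK2 were larger than the spread between libraries, with ranges that did not overlap. The 6 steps between had overlapping ranges, although ALDOA and LDHB were the only neighbours that changed places in a library. The poly(A) library was the highest of the 3 for every one of the 10 genes, so the selection method and the group spread cannot be told apart.

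The authors' deposited table of copies per cell gave the same contrast. It covers the same 3 total libraries, so it is no independent check of the TPM. In that table GAPDH had 291, 689 and 665 mature copies per cell in total replicates 1, 2 and 3. ENO1 came next with 120, 339 and 313 copies in the authors' deposited table, and HK2 had 1.07, 3.05 and 0.876. Primary copies in the same authors' deposited table were 0.249, 0.54 and 0.569 per cell for GAPDH and 0.0225, 0.115 and 0.0259 for HK2. The poly(A) library, highest in TPM, was the lowest of the 3 in mature copies for 9 of the genes, and for HK2 it lay between the others.

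**Figure D1:**
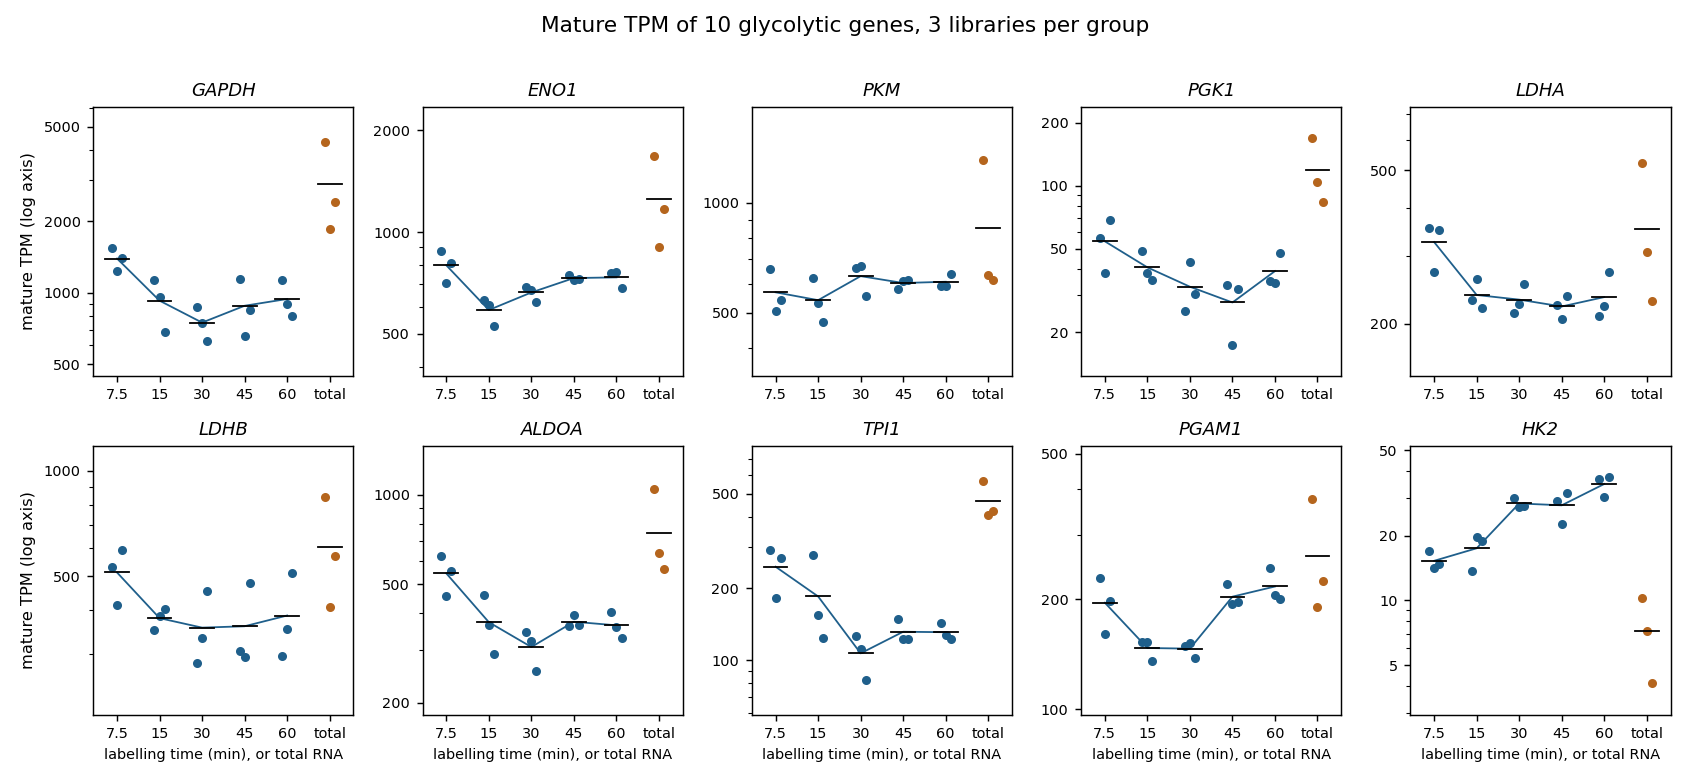
Mature TPM (log axis) of each gene in every library by labelling time in min, with total RNA at the right; points are libraries and short bars the means of 3. HK2 is the gene whose labelled values are higher at the late times, with 30.2 to 37.4 TPM at 60 min against 14.1 to 17.1 TPM at 7.5 min, and whose total values lie below all labelled ones.

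HK2 mRNA took a larger share of labelled RNA at 60 than at 7.5 min, and TPI1 and ALDOA a smaller one. The summed mature TPM of the 10 genes averaged 4655 ± 609, 3437 ± 504, 3252 ± 182, 3563 ± 282 and 3691 ± 142 at 7.5, 15, 30, 45 and 60 min of labelling (SD over 3 libraries), beside 7532 ± 2890 in total RNA. TPM are shares of all transcripts in a library, so less RNA of a gene and more RNA of others cannot be told apart.

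HK2 had 36.9, 30.2 and 37.4 mature TPM in the 60 min libraries, against 17.1, 14.1 and 14.7 TPM in the 7.5 min libraries. Every 60 min value lay above every 7.5 min value. On the log2(TPM + 1) scale, which understates the change of low genes, HK2 rose by 1.14 (SE 0.22, limma adjusted p = 0.00201), or 0.89 above the median of all genes. The call held under all 13 alternatives tried, with changes of 0.79 to 1.23 and adjusted p-values of 0.000869 to 0.0369.

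TPI1 had 143, 127 and 123 mature TPM at 60 min, against 289, 183 and 268 TPM at 7.5 min. ALDOA had 402, 359 and 330 TPM at 60 min, against 621, 458 and 553 TPM at 7.5 min. For both genes every 60 min library lay below every 7.5 min library. TPI1 fell by 0.89 (SE 0.27, limma adjusted p = 0.0286) and ALDOA fell by 0.57 (SE 0.19, limma adjusted p = 0.0435) on the log2 scale. Both calls ended without a filter on low values, and the ALDOA call also under quantile normalization (−0.41) and with only the 6 libraries compared. Leaving out any 1 of the 6 libraries except 7.5 min replicate 2 ended each of them, and the limma adjusted p-values without 1 library were 0.0195 to 0.103 for TPI1 and 0.0334 to 0.146 for ALDOA.

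GAPDH had 1133, 894 and 798 mature TPM at 60 min, against 1549, 1238 and 1397 TPM at 7.5 min. LDHA had 210, 223 and 272 TPM at 60 min, against 354, 273 and 351 TPM at 7.5 min. Neither gene's groups overlapped, though LDHA came within 1 TPM of doing so, and neither passed the test: the log2 change was −0.58 (SE 0.23, limma adjusted p = 0.0993) for GAPDH and −0.47 (SE 0.16, limma adjusted p = 0.0549) for LDHA. Under the 13 alternatives LDHA was called lower in 7 and GAPDH in 3, beside 7 for TPI1 and 5 for ALDOA. The remaining 5 had overlapping groups and did not pass, with log2 changes of −0.44 for PGK1, −0.43 for LDHB, −0.11 for ENO1, 0.10 for PKM and 0.16 for PGAM1. LDHB was highest in replicate 3 at each of the 5 times, at 509 TPM against 297 and 353 TPM in the other 60 min libraries.

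Set against all 16739 genes tested, 1 of the 10 enzymes rose (percent of all genes called higher: 15.8) and 2 fell (percent of all genes called lower: 4.21). The median log2 change was −0.43 over the 10 enzymes and 0.24 over all genes, and 9 of the 10, all but HK2, lay below that all-gene median. Other scalings moved the all-gene median to 0.04 (TPM rescaled over mature transcripts), −0.05 (median-ratio scaling) and 0.01 (quantile normalization). Beside this, the primary share of TPM was lower at 60 min, at 7.19% to 11%, than at 7.5 min, at 22.3% to 23.8%, and the mature-only TPM are free of that difference. Under these scalings HK2 was higher in each, GAPDH, TPI1, ALDOA, LDHA, LDHB and PGK1 were lower in each, ENO1 was higher under quantile normalization alone (0.23), PKM was lower with mature-only TPM (−0.13) and median-ratio scaling (−0.24), and PGAM1 was no longer higher in any (−0.19 under median-ratio scaling). The number of enzymes called lower was 4 with mature-only TPM, 5 under median-ratio scaling and 2 under quantile normalization. Of all 16739 genes, 968, 1307 and 1176 were called lower under these scalings, in the same order.

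**Figure D2:**
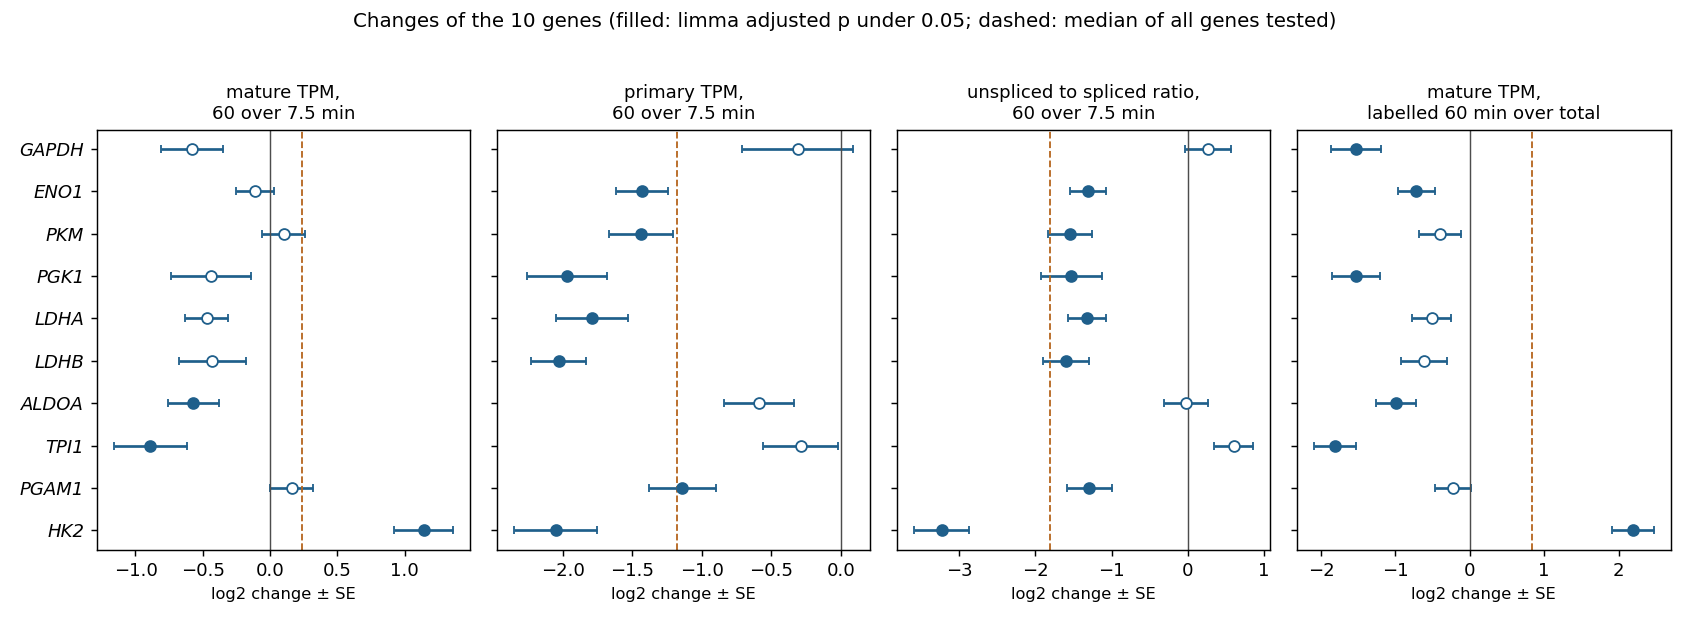
Log2 changes with their SE for the 10 genes in 4 comparisons, with filled points for limma adjusted p-values below the threshold of 0.05, a solid line at 0 and a dashed line at the median of all genes tested. HK2 lies to the right of both lines for mature RNA (1.14 at 60 over 7.5 min, 2.19 for labelled 60 min over total), and GAPDH, ALDOA and TPI1 have open points in the unspliced to spliced ratio.

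The intermediate times showed when the shares moved. At 15 min no enzyme passed in either direction, against 0.0418% of all genes higher and 0.00597% lower than at 7.5 min. Uncalled log2 changes between −0.61 (GAPDH) and −0.38 (PGK1) were present in 8 of the 10. How many of all genes changed as much was not counted. The enzyme median at 15 min was −0.43, against −0.01 over all genes. This enzyme median was −0.45 with TPM rescaled over mature transcripts, −0.42 under median-ratio scaling and −0.17 under quantile normalization. At 30 and 45 min the enzyme medians were −0.51 and −0.53, against 0.16 and 0.19 over all genes. At 30 min HK2 was higher than at 7.5 min (log2 change 0.85, limma adjusted p = 0.0249; percent of all genes called higher: 5.7), and TPI1 (−1.20, limma adjusted p = 0.0104), GAPDH (−0.90, limma adjusted p = 0.0244) and ALDOA (−0.82, limma adjusted p = 0.0125) were lower (percent of all genes called lower: 2.84). At 45 min HK2 was higher (0.81, limma adjusted p = 0.0198; percent of all genes called higher: 12.3), and PGK1 (−0.96, limma adjusted p = 0.037), TPI1 (−0.88, limma adjusted p = 0.0333) and LDHA (−0.54, limma adjusted p = 0.0322) were lower (percent of all genes called lower: 4.77).

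The calls at 30 and 45 min were sensitive to single libraries and to scaling. The HK2 call held in 1 of 6 fits without 1 library at 30 min and in 3 of 6 at 45 min, and it ended at both times under each of the 3 other scalings, with log2 changes that remained between 0.50 and 0.94 over all alternatives. At 30 min quantile normalization called PKM higher instead (0.56, limma adjusted p = 0.0487). The TPI1 and ALDOA calls at 30 min held in 4 of 6 fits each and the GAPDH call in 2 of 6. At 45 min the PGK1 call held in 3 of 6 and the TPI1 and LDHA calls in 2 of 6.

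The PGAM1 values were lower at 15 and 30 min, which the end points do not show. Its mature TPM were 228, 161 and 198 in the 7.5 min libraries, 153, 153 and 135 after 15 min, 149, 152 and 138 after 30 min, 219, 194 and 196 after 45 min, and 244, 206 and 200 after 60 min. Every library at 15 and 30 min lay below every library at the other 3 times. Such a course was not particular to PGAM1. ENO1 had 527 to 631 TPM at 15 min, below every ENO1 library at 7.5, 45 and 60 min, of which the lowest had 684 TPM. Its change at 15 against 7.5 min did not pass either (−0.44, limma adjusted p = 0.287). No contrast of PGAM1 passed: the log2 change was −0.40 (SE 0.16, limma adjusted p = 0.156) at 30 against 7.5 min and 0.56 (SE 0.16, limma adjusted p = 0.292) at 60 against 30 min. The second contrast was added after these values were seen, and in it limma called 0 of 16739 genes, with 1299 higher and 349 lower at an unadjusted p under 0.05.

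The contrast with HK2 was then taken within each library, as the ratio of each enzyme's mature TPM to that of HK2, which is the same whatever factor a whole library is multiplied by. GAPDH was 30.7, 29.6 and 21.4 times HK2 at 60 min, against 90.8, 87.9 and 94.9 times at 7.5 min. TPI1 was 3.87, 4.21 and 3.29 times HK2 at 60 min, against 16.9, 13 and 18.2 times at 7.5 min. PKM, whose own share did not pass, was 16.1, 19.6 and 17.1 times HK2 at 60 min, against 38.7, 35.9 and 36.7 times at 7.5 min. For all 9 enzymes each 60 min ratio lay below each 7.5 min ratio. HK2 itself rose by 0.89 more than the median of all genes, so a gene at that median also falls against HK2. How many of all genes would separate from HK2 in this way was not counted.

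With 1 TPM added to both genes, as in the test, the ratio was lower at 60 than at 7.5 min by 1.97-fold (PGAM1) to 4.06-fold (TPI1), with GAPDH and ALDOA at 3.27-fold each. A two-sided exact permutation test gave p = 0.1 for each of the 9 enzymes, the smallest p that 3 against 3 libraries allow, and 0.1 after Benjamini-Hochberg adjustment over the 9, so the design cannot reach a threshold of 0.05. The 9 ratios share the HK2 values, which were called higher at 60 min above, and so are not independent of each other or of that call. PGK1 ended nearly level with HK2, at 0.955, 1.14 and 1.28 times its TPM at 60 min, against 3.31, 2.71 and 4.65 times at 7.5 min. In total RNA the PGK1 ratio was 16.4, 14.4 and 20.3, and the GAPDH ratio 420, 258 and 586, in replicates 1, 2 and 3.

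Labelled RNA was next set against total RNA, which asks how the share of a gene in newly made RNA differs from its share in the standing pool. HK2 was the enzyme enriched in new RNA. Its 36.9, 30.2 and 37.4 mature TPM at 60 min stood against 10.3, 7.21 and 4.12 TPM in total RNA, and its log2 change was 2.19 (SE 0.28, limma adjusted p = 8.87e-06), or 1.36 above the median of all genes. It was called in all 10 alternatives. At 7.5 min its log2 change against total RNA was 1.06 (SE 0.28, limma adjusted p = 0.00806), which median-ratio scaling took to 0.48 (limma adjusted p = 0.118).

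Of the 9 abundant enzymes, 5 were lower in 60 min labelled RNA than in total RNA and 4 did not pass the test. TPI1 had 143, 127 and 123 mature TPM at 60 min, against 568, 409 and 425 TPM in total RNA (log2 change −1.81, SE 0.28, limma adjusted p = 6.39e-05). GAPDH had 1133, 894 and 798 TPM at 60 min, against 4331, 1860 and 2416 TPM in total RNA (−1.53, SE 0.34, limma adjusted p = 0.00127). PGK1 had 35.3, 34.4 and 48.0 TPM at 60 min, against 169, 104 and 83.6 TPM in total RNA (−1.53, SE 0.32, limma adjusted p = 0.000856). In these 3 genes, and in ALDOA (−0.99, limma adjusted p = 0.00562), no labelled library reached the lowest total library, and all 4 calls held in the 10 alternatives.

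ENO1 was lower as well (−0.72, limma adjusted p = 0.0271) and its groups did not overlap, but the call ended without any 1 of the 60 min libraries, without total replicate 1 and when TPM were rescaled without mitochondrial transcripts (−0.44). LDHB (−0.62), LDHA (−0.51), PKM (−0.40) and PGAM1 (−0.22) did not pass and overlapped with total RNA. Of the 10 enzymes 1 was therefore higher (percent of all genes called higher: 40.1) and 5 were lower (percent of all genes called lower: 5.24) at 60 min against total RNA. The all-gene median of this comparison was 0.84 and became 0.06 under median-ratio scaling, where all 9 enzymes other than HK2 were lower, and the median over the 10 enzymes was −0.67.

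Against the same total libraries, the 7.5 min libraries gave 1 enzyme higher, HK2 (percent of all genes called higher: 25.1), and 3 lower, PGK1 (−1.09), TPI1 (−0.93) and GAPDH (−0.95; percent of all genes called lower: 3.62). These 3 calls ended when TPM were rescaled without mitochondrial transcripts, without total replicate 1 (the poly(A) library; changes of −0.81, −0.78 and −0.61 for PGK1, TPI1 and GAPDH) and without 7.5 min replicate 2 (−0.86, −0.73 and −0.87). Leaving out either other 7.5 min library also ended the GAPDH call, while median-ratio scaling called 9 enzymes lower and HK2 not. The 2 comparisons share the total libraries. Side by side, the log2 change against total RNA was −1.81 at 60 min and −0.93 at 7.5 min for TPI1, −1.53 and −0.95 for GAPDH, −0.51 and −0.04 for LDHA, and 2.19 and 1.06 for HK2.

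Splicing was followed through the primary form, which holds the introns, on the log2(TPM + 0.1) scale. Primary transcripts of 7 of the 10 enzymes were lower at 60 than at 7.5 min (percent of all genes called lower: 59.4), and none was higher. HK2 had 3.42, 5.22 and 6.68 primary TPM at 60 min, against 21.3, 18.6 and 22.5 TPM at 7.5 min, so that it fell by 2.05 on the log2 scale (SE 0.30, limma adjusted p = 0.000327). LDHB fell by 2.03, PGK1 fell by 1.97, LDHA fell by 1.79, PKM fell by 1.44, ENO1 fell by 1.43 and PGAM1 fell by 1.14 on the log2 scale.

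The other 3, TPI1, GAPDH and ALDOA, did not pass in primary TPM. TPI1 had 25.7, 19.8 and 18.1 primary TPM at 60 min, against 35.5, 19.3 and 24.5 TPM at 7.5 min, and the groups overlapped. GAPDH had 74.3, 56.8 and 39.9 primary TPM at 60 min, against 119, 44.0 and 61.8 TPM at 7.5 min. The log2 changes were −0.29 for TPI1 (limma adjusted p = 0.376), −0.31 for GAPDH (limma adjusted p = 0.525) and −0.59 for ALDOA (limma adjusted p = 0.0532). GAPDH primary values were highest in replicate 1 at all 5 times. The all-gene median was −1.18, and median-ratio scaling, which moved it to 0.07, left 3 enzymes called lower (HK2, PGK1 and LDHB).

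**Figure D3:**
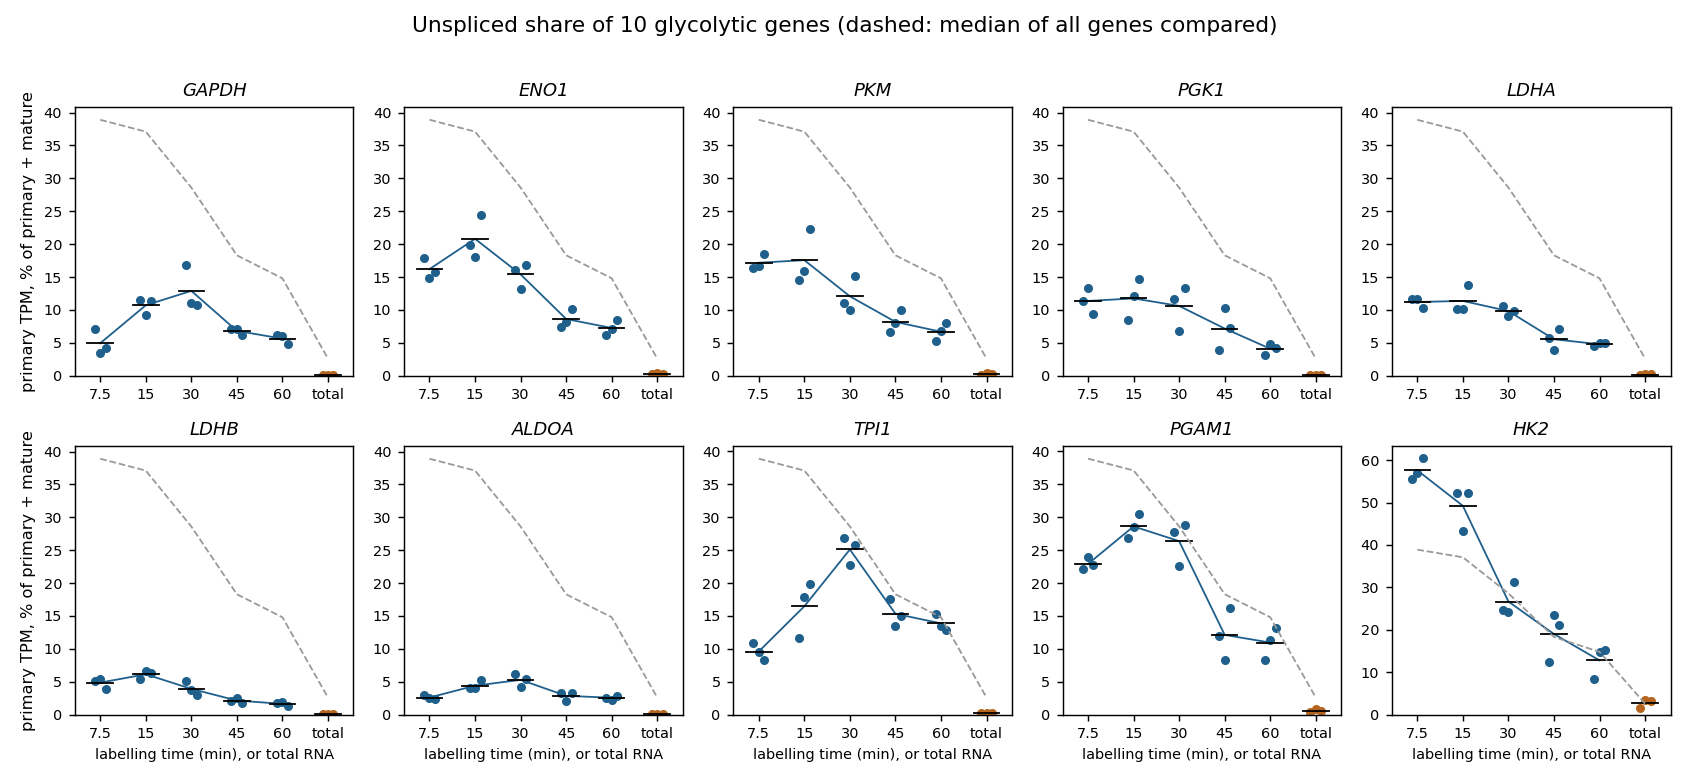
Primary TPM as a percent of primary plus mature TPM for each gene and library by labelling time in min, with total RNA at the right, means as short bars and the median of all 13879 genes compared as a dashed line; the HK2 axis reaches higher. HK2 starts above the dashed line at 7.5 min (55.5% to 60.4%) and the 9 others start below it. TPI1, GAPDH and ALDOA have their highest mean at 30 min and the other 6 at 15 min. For PKM, LDHA and PGK1 the means at 7.5 and 15 min differ by less than the spread.

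The unspliced share of a gene, its primary TPM as a percent of both forms, separated HK2 from the rest at the shortest label. HK2 was 8.48%, 14.7% and 15.2% unspliced at 60 min, against 55.5%, 56.9% and 60.4% at 7.5 min. The median gene was 11.4%, 15.9% and 17.2% unspliced at 60 min, against 39.3%, 38.4% and 38.9% at 7.5 min, so HK2 lay below it in each 60 min library and above it in each 7.5 min library. The 9 enzymes averaged from 2.6% (ALDOA) to 22.9% (PGAM1) at 7.5 min, and at that time 1.54% of all genes had a lower share than ALDOA, 20.2% a lower share than PGAM1 and 78.4% a lower share than HK2. In total RNA the mean was 2.72% ± 1.03 (SD, n = 3) for HK2 and at most 0.597% ± 0.198 (SD, n = 3, PGAM1) for the others.

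The ratio of unspliced to spliced RNA fell between 7.5 and 60 min for 7 of the 10 enzymes (percent of all genes called lower: 62.8). HK2 fell by 3.23 on the log2 scale (SE 0.36, limma adjusted p = 1.42e-05), beyond the all-gene median of −1.81, and the other 6, PKM, ENO1, PGK1, LDHA, LDHB and PGAM1, fell by 1.29 to 1.60. The 7 calls held without any 1 library. Median-ratio scaling used separate factors for primary and mature TPM, so ratios under it are relative to those of most genes. It took the all-gene median to −0.05 and left HK2 as the one enzyme called lower (−1.41). TPI1, GAPDH, ALDOA and ENO1 (0.52, limma adjusted p = 0.0374) were called higher, and the other 6 of the 7 turned sign. ENO1 was so called although its own unspliced share was 7.25% at 60 min, against 16.2% at 7.5 min.

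The mean unspliced share was highest at 30 min for TPI1, GAPDH and ALDOA and at 15 min for the other 6 abundant enzymes. Among those 6, ENO1 averaged 20.8% ± 3.36 at 15 min against 16.2% ± 1.55 at 7.5 min and PGAM1 28.6% ± 1.85 against 22.9% ± 0.927 (SD, n = 3 each). LDHB averaged 6.14% ± 0.634 at 15 min against 4.87% ± 0.823 at 7.5 min, with overlapping ranges. For PKM (17.6% ± 4.13 against 17.2% ± 1.12), LDHA (11.4% ± 2.09 against 11.2% ± 0.79) and PGK1 (11.8% ± 3.14 against 11.4% ± 1.96) the difference was smaller than the spread, so no rise after 7.5 min was shown. TPI1 averaged 9.61% ± 1.29, 16.5% ± 4.29, 25.1% ± 2.12, 15.4% ± 2.11 and 13.9% ± 1.26 unspliced at 7.5, 15, 30, 45 and 60 min of labelling (SD over 3 libraries). GAPDH averaged 4.93% ± 1.95, 10.7% ± 1.30, 12.9% ± 3.43, 6.82% ± 0.570 and 5.63% ± 0.759 at the same times (SD over 3 libraries). In both genes every 30 min library lay above every 7.5 min library, a comparison made after the values were seen. ALDOA had a flatter course of the same form, with 5.29% ± 1.00 at 30 min against 2.60% ± 0.298 at 7.5 min (SD, n = 3 each).

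At 60 against 7.5 min the ratio changed by 0.60 for TPI1 (SE 0.26, limma adjusted p = 0.0572), with every 60 min library above every 7.5 min library in unspliced share, by 0.26 for GAPDH (limma adjusted p = 0.47) and by −0.02 for ALDOA (limma adjusted p = 0.965), and none of the 3 passed. Under median-ratio scaling, and so relative to most genes, all 3 were called higher, with log2 changes of 2.43 for TPI1 (limma adjusted p = 0.000259), 2.1 for GAPDH (0.00199) and 1.81 for ALDOA (0.00125). TPI1 also passed with a pseudocount of 1 (0.61). The loci of TPI1, GAPDH and ALDOA span 3830, 4448 and 6294 bp, against 7282 bp for PGAM1, 14038 bp for LDHA, 18251 bp for ENO1, 32794 bp for PKM and 59379 bp for HK2. In that order of length they had 9.61%, 4.93%, 2.6%, 22.9%, 11.2%, 16.2%, 17.2% and 57.6% unspliced RNA at 7.5 min. LDHB and PGK1, with annotated spans of 122516 and 218558 bp, had 4.87% and 11.4%. The share thus did not follow the annotated length through all 10 genes, nor through the shorter loci alone.

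Individual introns could be followed in the authors' deposited table, which gives for each intron the share excised at each time, with the replicates combined and hence no SD. It lists 57 introns of 8 enzymes among 21782 introns in all, and none of PGK1 or TPI1. The authors sorted introns into fast, medium and slow classes, and 42 of the 57 (73.7%) were fast, 12 medium and 3 slow, beside 39.4% fast among all introns. All 8 GAPDH introns and 9 of 10 ALDOA introns were fast, as were 6 of 7 in LDHA, 8 of 11 in ENO1, 5 of 7 in LDHB, 5 of 10 in PKM and 1 of 3 in PGAM1. The single HK2 intron listed in the authors' deposited table (chr2:75061771-75081419, hg19, 19649 bp) was medium.

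At the shortest label the median intron of the abundant enzymes ran from 59.7% (PGAM1) to 88.7% (GAPDH) excised in the authors' deposited table. No pull-down from unlabelled cells is among the 18 libraries, so how much older RNA the labelled libraries hold was not tested. In the authors' deposited table the median intron of the 8 enzymes was 86.6% excised at 60 min and 73.4% at 7.5 min, beside 84.4% at 60 min and 54.2% at 7.5 min for all introns. The first listed GAPDH intron (chr12:6643736-6643975, hg19, 240 bp, 75% GC) was the most complete of the 57 in the authors' deposited table, at 97.4% excised at 60 min and 95.8% at 7.5 min, where 99.9% of all introns were less excised. The HK2 intron was 44.0%, 57.6%, 72.9%, 76.3% and 90.0% excised at 7.5, 15, 30, 45 and 60 min in the authors' deposited table.

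The median excised share did not climb at every step in 5 of the 8 genes. The median GAPDH intron was 88.7%, 77.1%, 75.4%, 86.2% and 88.6% excised at 7.5, 15, 30, 45 and 60 min in the authors' deposited table, and the median ALDOA intron 81.1%, 72.7%, 67.8%, 74.3% and 81.2%. The median of all introns in the authors' deposited table climbed at each step, through 57.9% at 15 min, 69.6% at 30 min and 80.6% at 45 min. GAPDH and ALDOA had their lowest median at 30 min. ENO1 (63.9%), LDHB (65.0%) and PKM (63.0%) were lowest at 15 min in the authors' deposited table, against 73.4%, 72.9% and 65.8% at 7.5 min. GAPDH and ALDOA introns were short (median 117 and 166 bp, beside 1424 bp for all introns) and rich in GC (61.1% and 58.4%, beside 41.4%).

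**Figure D4:**
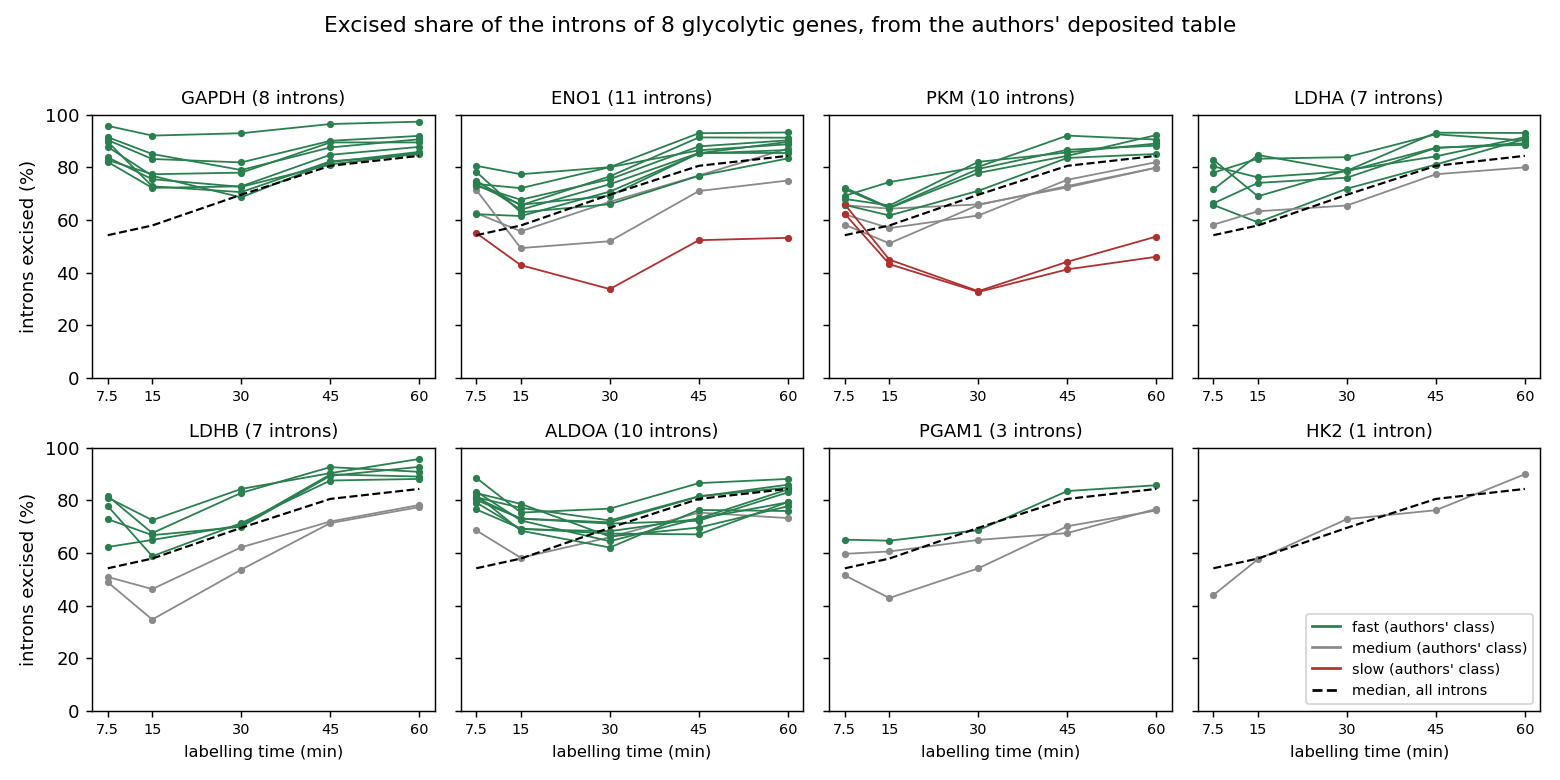
Percent excised of each listed intron of 8 genes by labelling time in min, from the authors' deposited table, coloured by the authors' class, with the median of all 21782 introns dashed. The red (slow) lines are 1 ENO1 intron and 2 neighbouring PKM introns, which end at 53.2%, 53.7% and 46.0% excised at 60 min while the other lines end higher.

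The 3 slow introns of the set lay in ENO1 and PKM. The PKM introns at chr15:72494962-72499068 and chr15:72492997-72494794 (hg19, 4107 and 1798 bp, minus strand) were 65.9% and 62.3% excised at 7.5 min, 32.9% and 32.6% at 30 min, and 53.7% and 46.0% at 60 min in the authors' deposited table. Of all introns in that table, 3.94% and 1.97% were less excised at 60 min. The other 8 PKM introns were 79.9% to 92.3% excised at 60 min in the authors' deposited table. The third listed ENO1 intron (chr1:8930570-8931949, hg19, 1380 bp) was 53.2% excised at 60 min and 55.0% at 7.5 min in the authors' deposited table.

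The pair of slow PKM introns flank a 167-base exon, matched by the lengths of both introns to GENCODE 29 at chr15:72202454-72202620 (GRCh38, minus strand), where 4 annotated transcripts use it. The exon is shown because it is the stretch between these introns. It is known as the M2 exon, used in place of an M1 exon of equal length to make the PKM2 form of pyruvate kinase that growing cells favour. An exon of the same 167 bases in length, at chr15:72203022-72203188 and used by 6 annotated transcripts, lies inside the longer of these introns. The authors' class says nothing of which of the exons was used.
PKM, 167-base exon between its slow introns: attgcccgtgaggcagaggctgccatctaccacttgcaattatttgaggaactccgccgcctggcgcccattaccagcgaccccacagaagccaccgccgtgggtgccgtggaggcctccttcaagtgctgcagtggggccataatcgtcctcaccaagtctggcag

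**Figure D5:**
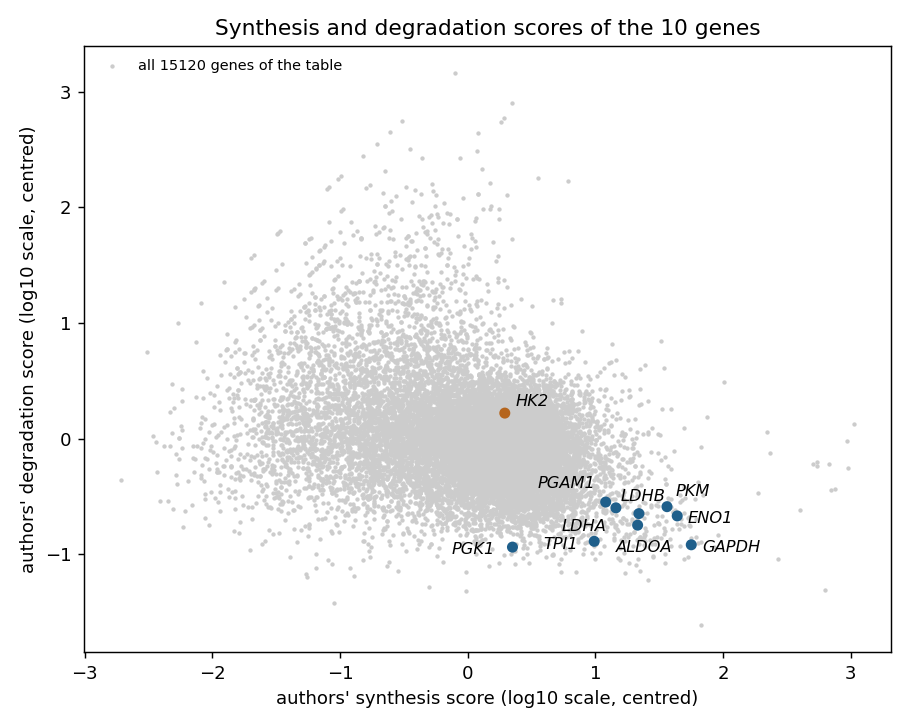
The authors' degradation score against their synthesis score (both on a log10 scale, centred) for all 15120 genes of their table in grey, with 9 enzymes in blue and HK2 in orange. The 9 enzymes lie low, between −0.55 and −0.94 on the degradation axis, and HK2 lies at 0.22.

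The authors' deposited rate table holds synthesis and degradation scores for 15120 genes, estimated from these libraries, so it is no independent check of the shares above. All 9 abundant enzymes had low degradation scores in the authors' deposited table, from −0.94 (PGK1) and −0.92 (GAPDH) to −0.59 (PKM) and −0.55 (PGAM1), and 0.522% to 7.83% of genes scored lower. HK2 scored 0.22 in the authors' deposited table, with 76.2% of genes below it. The HK2 score was above theirs by 0.77 (PGAM1) to 1.16 (PGK1). Read on a log10 scale, these differences stand for a degradation rate 5.92 to 14.5 times as high. The authors put the 9 enzymes in their cluster c1, which holds 13.7% of genes and has the lowest median degradation score of the 7 clusters (−0.39), and HK2 in c3 (median 0.11).

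Synthesis differed less regularly. In the authors' deposited table GAPDH (1.75), ENO1 (1.64) and PKM (1.56) were above 99.6% or more of genes, while PGK1 (0.35) lay near HK2 (0.29), above 68.3% and 63.5% of genes. The degradation scores of HK2 and PGK1 differed by 1.16 in the authors' deposited table, beside 7.21 ± 3.10 and 119 ± 44.9 TPM in total RNA (SD, n = 3 each). The processing score, which was used for order only, was above 82.9% of genes or more for all 10 enzymes, with ALDOA (above 99.6%) and LDHB (99.5%) at the top. The translation score of the authors' deposited table was above 97.9% of genes or more for the 9 enzymes and above 74.5% for HK2, and the cytoplasmic to nuclear score was above 87.4% or more for all 10. The polyribosomal to cytosolic score did not group them, and ran from above 12.5% of genes for HK2 to above 94.7% for TPI1.

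The rest of the pathway was described from lists of named genes. Of 9 other glycolytic genes tested at 60 against 7.5 min, 1 fell and none rose, with a median of 0.03: GPI, glucose phosphate isomerase, had 216, 335 and 254 mature TPM at 60 min, against 375, 483 and 426 TPM at 7.5 min (log2 change −0.69, limma adjusted p = 0.0495). HK1, the housekeeping hexokinase, averaged 38.7 ± 4.06 TPM at 60 min, against 36.7 ± 3.30 TPM at 7.5 min (SD over 3 libraries; log2 change 0.07, limma adjusted p = 0.855). The phosphofructokinase genes PFKL (−0.31), PFKM (−0.35) and PFKP (−0.20) did not pass either. Of 11 tissue-restricted isozymes, 2 were expressed enough to be tested and neither passed.

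Among 13 tested regulators of glycolytic flux and transporters, 4 rose and none fell, with a median of 0.81. PFKFB3 makes a fructose bisphosphate that activates phosphofructokinase and is not the one that aldolase cleaves. It had 61.0, 41.6 and 39.3 mature TPM at 60 min, against 19.3, 16.1 and 14.3 TPM at 7.5 min (log2 change 1.44, limma adjusted p = 0.000887). SLC2A1, the glucose transporter GLUT1, had 120, 77.5 and 78.8 TPM at 60 min, against 42.3, 28.2 and 35.1 TPM at 7.5 min (1.35, limma adjusted p = 0.00362). Both had non-overlapping groups, as HK2 did. TIGAR (1.24, limma adjusted p = 0.0291) and SLC16A1, a lactate transporter (0.81, limma adjusted p = 0.00394), were the other 2, named after their values were seen. Against total RNA at 60 min, PFKFB3 (2.34) and SLC2A1 (1.66) were also higher. In that comparison 5 of the 13 were called higher (percent of all genes called higher: 40.1) and 2 lower (percent of all genes called lower: 5.24).

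No pentose phosphate gene of 7 passed (median −0.20). Of 20 genes of pyruvate dehydrogenase and the tricarboxylic acid cycle, 2 rose, SDHD (0.80, limma adjusted p = 0.0208) and DLAT (0.75, limma adjusted p = 0.0419), and 1 fell, SDHA (−0.59, limma adjusted p = 0.0443), with a median of −0.13. For all of these lists at 60 against 7.5 min the background is the one given above, 15.8% of genes higher and 4.21% lower.

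The genes whose log2 mature TPM followed GAPDH most closely over the 18 libraries, out of 8819 protein-coding genes with a mean of at least 10 TPM, were CYC1 (Pearson r = 0.966), FTL (0.962) and RPL4 (0.956). Those nearest to HK2 were ASXL1 (0.982), FOXK2 (0.979) and CCNG2 (0.978). The 18 libraries include 15 labelled and 3 total ones, and the values are given as a description.

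Several loci overlap other genes, and how reads were divided there was not tested. By GENCODE 29 (GRCh38), GAPDH spans chr12:6533927-6538374, TPI1 chr12:6867119-6870948, ALDOA chr16:30064164-30070457 and HK2 chr2:74833981-74893359, all on the plus strand. The annotated PGK1 locus shares 139657 bp with ATP7A on the same strand, LDHB shares 22457 bp with another coding locus on its strand and ALDOA shares 6257 bp with one. Processed pseudogenes can share reads with their parents: 64 of them are named for GAPDH and 13 for PGAM1. Their summed TPM reached at most 3.14% of GAPDH, 17.1% of PGAM1 and 17.8% of TPI1 in any library, so those values carry that uncertainty. Genes on the opposite strand overlap GAPDH, ENO1, PGK1, LDHB, ALDOA, TPI1 and HK2, and whether reads were counted by strand was stated by none of the sources. The PGAM1 pseudogene PGAM1P10 had 0.02, 0 and 0 TPM at 60 min, against 10.9, 4.42 and 3.40 TPM at 7.5 min, and was the one pseudogene of 10 tested that passed (limma adjusted p = 0.0281).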

How the data were processed

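RNA-seq of 15 labelled and 3 total RNA libraries of HEK293 cells was used as deposited by the authors. The TPM values of mature and primary transcripts were made with Bowtie 1.0.1 and RSEM 1.2.11 on hg19, per the submitters' processing notes, with GENCODE 19, per the file headers. The authors' deposited tables gave estimated copies per cell, the excised fraction of each intron (junction reads, mean of 3 replicates, introns with more than 5 reads in each), intron length as log10 of bases, and centred gene scores for synthesis, processing, degradation, export, polysome loading and translation, for which the labelling times were combined. The degradation and synthesis scores deposited by the authors followed log10 of their linear rates (slope 0.95 and 0.96 over 4163 genes), so differences were read on a log10 scale. TPM hold no depth, so counting error could not be given.

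Mature TPM were tested with limma 3.58.1 (R 4.3.3) on log2(TPM + 1) for genes with a mean of at least 1 TPM, and primary TPM on log2(TPM + 0.1) for a mean of at least 0.1. The unspliced to spliced ratio used a pseudocount of 0.1 on both forms. The 15 labelled libraries shared 1 estimate of the spread, joined by the 3 total libraries for comparisons with total RNA. P-values were adjusted by Benjamini-Hochberg over all genes tested, with a threshold of 0.05. Ratios to HK2 were compared by an exact permutation test on log2 values with 1 TPM added (scipy 1.17.1). Symbols were matched for 52526 of 63568 entries. Loci and exons came from GENCODE 29 (GRCh38), and authors' hg19 coordinates were not converted. The code was tested on simulated data. Alternatives were other pseudocounts, filters and scalings, a replicate block and leaving out each library. Median-ratio factors were estimated separately for primary and mature TPM. The enzymes and all gene lists were chosen with earlier results of these data known. Of other lists, the 2 called genes with the largest change in each direction are named, with HK1, GPI and the phosphofructokinases by role.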

Additional observations from a re-analysis of the deposited data

How the results depend on the processing

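Of the single-gene results under all alternatives, 710 kept their direction and side of the threshold, 41 passed it only under the alternative, 68 lost it and 44 changed sign; where no cause is given, the cause was not tested. HK2 was higher at 60 than at 7.5 min in all 13 alternatives, and all 9 enzyme to HK2 ratios kept every 60 min value below every 7.5 min value in all of theirs (9 to 9 without 1 library).

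At 60 against 7.5 min, 2653 genes were called higher in mature TPM and 705 lower. Genes higher numbered 1612 with TPM rescaled over mature transcripts, 1297 under median-ratio scaling and 1510 under quantile normalization. Genes lower numbered 968, 1307 and 1176 under the same scalings, in that order. Enzymes lower numbered 0 without a filter, 4 with mature-only TPM, 5 with median-ratio scaling and 1 with only the 6 libraries compared, beside 2. A replicate block gave 1090 genes and 5 enzymes lower, and 190 genes with higher primary TPM. The letters do not pair the samples by any label, and deviations of same-letter libraries correlated at 0.084 to 0.273 (3 pairs), against −0.199 to 0.128 for other letters (6 pairs).

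Alternatives at 15, 30 and 45 min were chosen after seeing the data. At 15 min mature-only TPM gave 11 genes higher and 2 lower, and median-ratio scaling 3 higher. At 30 min median-ratio scaling gave 517 genes higher, enzymes higher were 0 with it and with mature-only TPM, and quantile normalization left 1 enzyme lower and called PKM higher (0.56, limma adjusted p = 0.0487) in place of HK2 (0.66, limma adjusted p = 0.121). At 45 min genes higher were 1235, 1013 and 1158 with mature-only, median-ratio and quantile values, enzymes higher 0 in each, genes lower 1257 with median-ratio scaling, and enzymes lower 5 with mature-only and 6 with median-ratio values.

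Median-ratio scaling gave 2926 genes higher and 3167 lower in primary TPM, with 3 enzymes lower. In the unspliced to spliced ratio, with each form scaled separately, it gave 1612 genes higher and 2195 lower, with 4 enzymes higher and 1 lower. Those ratio calls are relative to most genes. A pseudocount of 1 gave 1 enzyme higher in that ratio. Against total RNA median-ratio scaling gave 2516 genes higher and 2857 lower at 60 min with 9 enzymes lower, and 2701 higher and 2938 lower at 7.5 min with 0 enzymes higher and 9 lower. TPM without mitochondrial transcripts gave 577 genes lower at 60 min, and 210 genes and 0 enzymes lower at 7.5 min, where no filter gave 923 genes lower. Introns without a shared splice site had a median of 73.0% excised at 7.5 min, and 72.7% were fast.

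Without 1 library, genes higher and lower in mature TPM ranged over 1835 to 2230 and 407 to 569 at 60 min, 1 to 13 and 0 to 1 at 15 min, 555 to 819 and 278 to 433 at 30 min, and 1433 to 1926 and 474 to 890 at 45 min against 7.5 min. Enzymes higher and lower ranged over 1 to 1 and 0 to 3 at 60 min, 0 to 0 and 0 to 0 at 15 min, 0 to 1 and 0 to 4 at 30 min, and 0 to 1 and 0 to 3 at 45 min. Primary TPM gave 74 to 147 genes higher and 9902 to 11750 lower with 7 to 8 enzymes lower, and the ratio 125 to 165 and 7659 to 8488 with 7 to 7. Against total RNA the ranges were 4796 to 7169 and 568 to 924 genes with 1 to 1 and 4 to 6 enzymes at 60 min, and 2874 to 4663 and 322 to 761 genes with 1 to 1 and 0 to 4 enzymes at 7.5 min.

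Sign changes in log2 values were these. Mature TPM at 60 against 7.5 min gave ENO1 0.23 with quantile normalization, PKM −0.13 and PGAM1 −0.08 with mature-only TPM, PKM −0.24 and PGAM1 −0.19 with median-ratio scaling, and PGAM1 −0.00 with quantile normalization. ENO1 was 0.25 at 30 min and 0.28 at 45 min with quantile normalization. PKM at 15 min was 0.22 with quantile normalization, 0.04 without 7.5 min replicate 1 and 0.02 without 15 min replicate 3 (range −0.17 to 0.04), and with median-ratio scaling it was −0.05 at 30 min and −0.20 at 45 min, where mature-only TPM gave −0.11. PGAM1 at 45 min was −0.14, −0.23 and −0.02 with mature-only, median-ratio and quantile values and −0.07 without 7.5 min replicate 2 (range −0.07 to 0.19). Primary TPM with median-ratio scaling gave GAPDH 1.17, TPI1 1.2, ALDOA 0.89, PGAM1 0.35, ENO1 0.06 and PKM 0.04, and GAPDH 0.08 without 7.5 min replicate 1 (range −0.63 to 0.08 without 1 library). The ratio with median-ratio scaling gave ALDOA 1.81, PGAM1 0.54, ENO1 0.52, LDHA 0.51, PKM 0.28, PGK1 0.26 and LDHB 0.22, and ALDOA was 0.02 with a pseudocount of 1, 0.07 without 7.5 min replicate 1 and 0.06 without 60 min replicate 2 (range −0.09 to 0.07). At 7.5 min against total RNA LDHA was 0.40, LDHB 0.24, PGAM1 0.06 and ALDOA 0.02 without mitochondrial transcripts, LDHA 0.28 and LDHB 0.07 without total replicate 1, and LDHA 0.08 without 7.5 min replicate 2 (ranges −0.31 to 0.28 and −0.45 to 0.07). At 60 min PGAM1 was 0.05 without mitochondrial transcripts and 0.06 without total replicate 1 (range −0.43 to 0.06).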
